A study of Mus musculus with 27 samples.

Results

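The matrix metalloproteinases and their tissue inhibitors were followed through 9 mouse mammary tumour cell lines kept without cytokine or treated with TGFβ or Wnt3a. The group held 10 named genes, Mmp2, Mmp3, Mmp9, Mmp10, Mmp11, Mmp13 and Mmp14 and the inhibitors Timp1, Timp2 and Timp3, of 24454 genes listed. All 10 were found by their Entrez identifiers, and all 10 were among the 13270 genes that reached 1 CPM in 2 or more libraries, where CPM is the number of reads of a gene per 1000000 reads assigned to genes. The lines came from thoracic mammary gland tumours of 12-week-old females carrying MMTV-PyMT, a transgene whose MMTV promoter drives the polyoma middle T oncogene in the mammary epithelium of FVB/N mice. Fibroblasts were removed by differential trypsinization. In ΔHD1/fl and ΔHD2/fl lines the coactivators Bcl9 and Bcl9L (B9/B9L) carried a mutant allele lacking HD1, which binds Pygopus, or HD2, which binds β-catenin, beside a floxed wild-type allele. The floxed allele of ΔHD1/- and ΔHD2/- lines was recombined by an adenovirus carrying Cre and GFP, followed by sorting for GFP, so that only the mutant protein could be made. All 9 lines thus carried MMTV-PyMT and a mutant B9/B9L allele, and no line with wild-type B9/B9L was analysed here. Cells received no cytokine, TGFβ at 2 ng/ml for 4 days or Wnt3a at 100 ng/ml for 3 days, so the cytokines differed in duration as well as in kind. The labels give day 4 for the untreated libraries too, while stating that RNA from all samples was taken at 1 time, so a Wnt3a library may also differ in time from its control. There were 27 libraries in 12 groups, with 2 lines per genotype and 3 lines of ΔHD2/-, although the labels speak of 2 lines from different mice for each genotype.

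Matrix metalloproteinases (Mmp) are zinc-dependent endopeptidases that cut collagens, laminins, proteoglycans and other proteins of the extracellular matrix, and they also release growth factors stored there. Most are secreted as inactive precursors with a propeptide that must be removed, and Mmp14 is anchored in the plasma membrane. Timp proteins block active metalloproteinases by binding their catalytic site, and Timp2 also helps Mmp14 to activate the Mmp2 precursor. In mammary tumours much of the enzyme is made by stromal cells, while carcinoma cells can switch on some of the genes during epithelial-mesenchymal transition.

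Depth was 21.86 to 33.69 M reads per library, so the upper limit behind a count of 0, taken as 3 reads, was 0.089 to 0.137 CPM. Bcl9 stood at 32.4 to 104 CPM and Bcl9l at 70.7 to 346 CPM over the 27 libraries, with overlapping ranges in the 4 genotypes. These levels do not check the labels, since each line retains a transcribed mutant allele. Defining leukocyte markers were near 0, with Ptprc and Adgre1 at most at 0.252 CPM in any library, although the other 4 leukocyte markers reached 1 CPM and the 6 summed to 3.06 to 187 CPM. Of the 8 fibroblast markers Lum and Dpt stayed at or under 0.107 CPM. The other 6 fibroblast markers did not stay low in every line, as described with Mmp2 and Mmp14. ΔHD2/- lines 2 and 3 were nearly alike, since their libraries correlated at 0.993 to 0.997 (Pearson, across genes), while the 15 remaining pairs of same-group libraries gave 0.807 to 0.957, and their independence was not shown. Averaging them into 1 line kept the same count of called members in every comparison.

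The promoters of Mmp13, Mmp3 and Mmp10 are shown because these neighbouring genes share a sequence element but differed in their levels under TGFβ. The genes lie on the plus strand of chromosome 9 (GRCm38.p6), Mmp13 from 7272514 to 7283333, Mmp3 from 7445822 to 7455975 and Mmp10 from 7502342 to 7510242. Each line below gives the 120 bases before the RefSeq start of the gene, 5′ to 3′, at chr9:7272394-7272513 for Mmp13, chr9:7445702-7445821 for Mmp3 and chr9:7502222-7502341 for Mmp10. Capitals mark the letters TGANTCA, the binding motif of the AP-1 transcription factors.
Mmp13: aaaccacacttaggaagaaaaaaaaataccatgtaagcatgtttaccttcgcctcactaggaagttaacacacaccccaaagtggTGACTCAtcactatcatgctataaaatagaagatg
Mmp3: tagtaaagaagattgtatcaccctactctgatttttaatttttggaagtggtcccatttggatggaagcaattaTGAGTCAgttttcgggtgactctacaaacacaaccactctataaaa
Mmp10: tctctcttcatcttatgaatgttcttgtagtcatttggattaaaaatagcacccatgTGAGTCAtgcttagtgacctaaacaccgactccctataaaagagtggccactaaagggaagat

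Promoter sequences from RefSeq were found for 8 of the 10 genes, and those of Mmp2 and Mmp9 were not analysed here. The 250 bases before each start were searched on both strands. TGANTCA began 35 bases before the start of Mmp13, 46 before that of Mmp3 and 63 before that of Mmp10, and it was in none of the other 5 promoters (Mmp11, Mmp14, Timp1, Timp2 and Timp3). Over all 32851 promoters, 6.75% held it in the same window. The letters TATAAA, the TATA box, were in the same 3 promoters and in none of the other 5, against 12.4% of all promoters. AGGAAG, a motif of ETS factors, was in Mmp3, Mmp13, Mmp14, Timp1 and Timp3, against 29.5% of all, and the SMAD half-site CAGAC was in Mmp10 and Mmp11, against 42.2%. CTTTGAT, a motif of TCF/LEF factors, was in none of the 8 and in 3.21% of all. No match overlapped another in the 3 printed stretches. A match describes the letters of the window and does not show binding.

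Levels without cytokine were compared between genes per kb of exon (CPM divided by the summed exon length in kb). The inhibitors stood highest. Timp3 had a median of 766 CPM per kb over the 9 lines (27.8 to 1427), Timp2 of 514 (225 to 1006) and Timp1 of 163 (44.1 to 293). Mmp14 followed with a median of 30.3 (0 to 174) and Mmp11 with 6.95 (0.668 to 15.3). Mmp2 at 1.76 (0.0136 to 11.1), Mmp3 at 1.52 (0 to 8.97), Mmp10 at 0.375 (0 to 5.33), Mmp9 at 0.0822 (0 to 5.85) and Mmp13 at 0.0800 (0 to 0.588) came last. The ranges of all neighbours in this order overlapped, so the order is a description. The lowest level of Timp2 lay above the highest level of each Mmp gene.

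Mmp9, the gelatinase that cuts type IV and denatured collagens, lies on chromosome 2 (164940326 to 164955850) and rose furthest with TGFβ. Without cytokine it stood at 0.549 and 0.261 CPM in ΔHD1/fl lines 1 and 2, at 0.0855 and 2.08 in ΔHD1/- lines 1 and 2, at 0.0431 and 0.777 in ΔHD2/fl lines 1 and 2, and at 18.6, 0.135 and 0 in ΔHD2/- lines 1 to 3. With TGFβ the same lines stood at 647 and 15.6, at 127 and 50.6, at 40.9 and 84.7, and at 3086, 1.44 and 2.38 CPM. Every line was higher with TGFβ, which was true of 5.41% of tested genes, but the groups overlapped, because ΔHD2/- line 1 without cytokine was above 3 of the 9 TGFβ libraries. In the 5 lines with more than 3 reads in both libraries the CPM was 24.4-fold to 1180-fold higher. The mean change over genotypes was 5.13 ± 1.24 (SE) on the log2(CPM + 1) scale (limma adjusted p = 0.00958), and 7.84 in edgeR on recovered reads (adjusted p = 0.0134), a scale without the added 1 CPM. The summed level of the 6 leukocyte markers was higher with TGFβ in 5 lines and lower in 4, from 3.06 to 14.8 CPM in ΔHD2/- line 1 where Mmp9 was highest, with a median of 6.08 without cytokine and 12.2 with TGFβ. That of 4 endothelial markers was higher in 6 lines and lower in 3, from 0.306 to 6.51 CPM in the same line, with Kdr and Tek under 1 CPM throughout and Cdh5 called (log2 change 1.20, limma adjusted p = 0.00967). The sum of the 8 fibroblast markers was higher in 6 lines and lower in 3 (median 31.7 CPM without cytokine and 65.8 with TGFβ), and that of 4 mesenchymal markers was higher in 8 lines and lower in 1 (median 346 and 1126 CPM). For 8 epithelial markers the sum was higher in 4 lines and lower in 5 (median 4759 and 4110 CPM). The part of these markers in the changes of Mmp9 and the other genes was not tested.

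The stromelysin Mmp10 and the collagenase Mmp13 rose as well. Mmp10 without cytokine was at 0.274 and 0.336 CPM in ΔHD1/fl lines 1 and 2, at 1.20 and 4.24 in ΔHD1/-, at 0.646 and 2.00 in ΔHD2/fl, and at 9.17, 0 and 0 in ΔHD2/- lines 1 to 3. With TGFβ it was at 145 and 26.8, at 46.7 and 64.5, at 35.6 and 14.8, and at 234, 0.111 and 0.125 CPM. It thus reached at least 14.8 CPM in 7 lines and stayed at 3 reads or fewer in ΔHD2/- lines 2 and 3. In those 7 lines the CPM ratio ran from 7.41 to 529, and the mean change was 3.68 ± 0.93 (SE) on the log2(CPM + 1) scale (limma adjusted p = 0.0125), and 5.54 in edgeR (adjusted p = 0.0305).

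Mmp13 without cytokine did not exceed 1.57 CPM in any line, with a median of 0.214. With TGFβ it stood at 32.6 and 14.3 CPM in ΔHD1/fl lines 1 and 2, at 30.6 and 2.38 in ΔHD1/-, at 4.27 and 7.42 in ΔHD2/fl, and at 17.2, 0.185 and 0.292 in ΔHD2/- lines 1 to 3. The groups overlapped, since ΔHD2/- lines 2 and 3 with TGFβ stayed within the range of the untreated libraries, while the other 7 lines were above it. How many of all genes split in this way was not counted. The mean change was 2.62 ± 0.50 (SE) on the log2(CPM + 1) scale (limma adjusted p = 0.00216), and 4.94 in edgeR (adjusted p = 0.013). Mmp9, Mmp10 and Mmp13 were the only members called in the mean over genotypes, where a call needs an adjusted p not above 0.05 and a log2 change of 1 or more in size. That is 3 of 10, all higher, against 5.42% of all tested genes called, 1.86% higher and 3.56% lower. At an unadjusted p under 0.05 there were 5 members, against 31.3% of genes. With cell line as a block, which compares each line with itself, 8.92% of genes were called and 4 members, Mmp9 (adjusted p = 8.32e-05), Mmp10 (0.000145), Mmp13 (0.000308) and Timp3, all by limma.

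Single lines decided some of these calls. In the limma fit without a block, Mmp9 lost its call when any of 4 lines was left out, with adjusted p of 0.0514 to 0.0561 (line 1 of ΔHD1/fl, line 1 of ΔHD1/- and both lines of ΔHD2/fl), and Mmp10 when line 1 of ΔHD1/fl or line 1 of ΔHD2/fl was left out, with adjusted p of 0.0640 and 0.0773. With the block Mmp9, Mmp10 and Mmp13 were called in 9 of 9 fits that each left out a line, with limma adjusted p not above 0.00127, 0.0019 and 0.00341. The block call of Timp3 held in 6 of these 9 fits, while Timp1 gained one in 5, Timp2 in 2 and Mmp2 in 1. Mmp13 was called under all 24 alternatives. Mmp9, Mmp10 and Mmp13 are among the genes of a list published with the study. The paper describes them as regulated by TGFβ and also altered in mutants whose β-catenin and B9/B9L cannot bind. That list was chosen partly on these libraries, so it is not independent evidence of their direction. It also drew on wild-type lines and a β-catenin mutant, which were not analysed here.

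**Figure D1:**
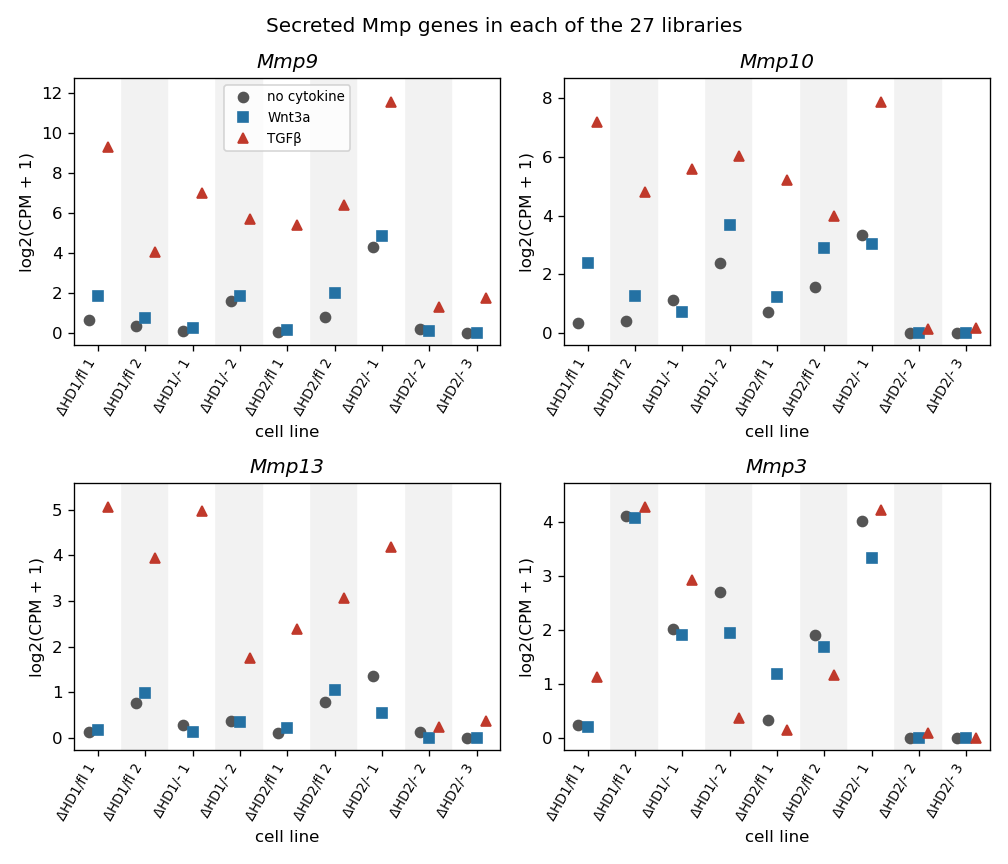
Levels of Mmp9, Mmp10, Mmp13 and Mmp3 in the 27 libraries. The x axis gives the 9 cell lines and the y axis log2(CPM + 1); circles are libraries without cytokine, squares Wnt3a and triangles TGFβ. In the first 3 panels the triangles stand above the circles in all 9 lines, while for Mmp3 they stand above in 5 lines, below in 3 and level in 1. The triangles of Mmp10 and Mmp13 in ΔHD2/- lines 2 and 3 are libraries with 7 reads or fewer of the gene.

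Mmp3, the stromelysin whose gene lies between those of Mmp13 and Mmp10, did not share this pattern. Without cytokine it was at 0.183 and 16.1 CPM in ΔHD1/fl lines 1 and 2, at 3.04 and 5.52 in ΔHD1/-, at 0.259 and 2.74 in ΔHD2/fl, and at 15.2, 0 and 0 in ΔHD2/-. With TGFβ it was at 1.18 and 18.5, at 6.59 and 0.288, at 0.113 and 1.24, and at 17.6, 0.0739 and 0 CPM. It was higher in 5 lines, lower in 3 and at 0 in both libraries of 1 line, and the mean change was -0.14 ± 0.86 (SE) on the log2(CPM + 1) scale (limma adjusted p = 0.935). In ΔHD1/- line 2 the level with TGFβ was 19.2-fold lower, and in ΔHD1/fl line 1 it was 6.44-fold higher. With the block the adjusted p was 0.701. Without ΔHD1/- line 2 the mean change of Mmp3 was 0.27, so its sign rested on that line.

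Mmp14, the membrane-anchored enzyme that activates the Mmp2 precursor, split the lines rather than the treatments. It lies on chromosome 14 (54431598 to 54442456). Libraries without cytokine held 0.274 CPM for line 1 of ΔHD1/fl and 0 for lines 2 and 3 of ΔHD2/-, against 399 for ΔHD1/fl line 2, 127 and 730 for ΔHD1/-, 104 and 269 for ΔHD2/fl and 205 for ΔHD2/- line 1. In the first 3 of these lines it did not exceed 0.463 CPM under any treatment, the level of ΔHD1/fl line 1 with TGFβ. Among the other 6 lines, TGFβ libraries stood at 478 CPM in ΔHD1/fl line 2, at 150 and 1666 in ΔHD1/- lines 1 and 2, at 163 and 641 in ΔHD2/fl lines 1 and 2, and at 267 in ΔHD2/- line 1. The level was higher with TGFβ in 8 lines, in ΔHD2/- line 2 by 1 read from 0, and at 0 in both libraries of the ninth. In the 7 lines with more than 3 reads in both libraries it was higher by 1.18-fold to 2.38-fold. The mean change was 0.51 on the log2(CPM + 1) scale with an SE of 1.81 in the fit without a block (limma adjusted p = 0.882) and of 0.12 with it (limma adjusted p = 0.00442), under the 2-fold limit in both.

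Mmp2, the gelatinase that Mmp14 activates, stood without cytokine at 5.95 and 15.6 CPM in ΔHD1/fl lines 1 and 2, at 6.07 and 34.0 in ΔHD1/-, at 1.90 and 5.41 in ΔHD2/fl, and at 0.262, 0.0450 and 0.0419 in ΔHD2/- lines 1 to 3. The 3 ΔHD2/- lines were thus the lowest, but lines 2 and 3 are the nearly alike ones, with 1 read each. How many of all genes set 1 genotype apart in this way was not counted. Against ΔHD2/fl the difference was -1.95 ± 1.19 (SE) on the log2(CPM + 1) scale (limma adjusted p = 0.681) and -4.93 in edgeR (adjusted p = 0.462). With TGFβ it stood at 1.93 and 9.66, at 0.159 and 41.0, at 1.59 and 2.41, and at 0.0378, 0.296 and 0.125 CPM. Mmp2 was thus lower in 6 lines and higher in 3, of which ΔHD2/- lines 2 and 3 had 1 read each without cytokine. Where both libraries held more than 3 reads it ranged from 38.2-fold lower in ΔHD1/- line 1 to 1.21-fold higher in ΔHD1/- line 2, and over all lines the mean change was -0.65 ± 0.62 (SE) (limma adjusted p = 0.512; with the block 0.0421, under the 2-fold limit).

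Without cytokine the 2 lines with the highest Mmp2, ΔHD1/fl line 2 and ΔHD1/- line 2, also had the 2 highest levels of Mmp14 and of Mmp11. With TGFβ this no longer held, since Mmp14 in ΔHD2/fl line 2 was above that of ΔHD1/fl line 2 and Mmp11 was highest in ΔHD1/fl line 1. In ΔHD1/fl line 2 and ΔHD1/- line 2 in that order, Cdh1, which encodes E-cadherin, was at 0.522 and 0.237 CPM without cytokine against 606 to 1145 in the other 7 lines, and Vim, which encodes vimentin, was at 4188 and 3678 against 2.48 to 761. The 8 epithelial markers, Cdh1 among them, summed to 358 and 1316 CPM in these 2 lines without cytokine, against 3779 to 19740 elsewhere. With TGFβ they summed to 39.8 and 3005 CPM there, so not all epithelial markers were lost in ΔHD1/- line 2. The summed level of the 8 fibroblast markers without cytokine was 2446 CPM in ΔHD1/fl line 2 and 4742 in ΔHD1/- line 2, against 1.05 to 213 elsewhere, with Lum and Dpt near 0 in all. The 6 leukocyte markers summed to 186 CPM in ΔHD1/- line 2, mostly Csf1r (165 CPM), with Ptprc at 0. The part of these markers in the Mmp levels was not tested, and a share of cells of another type cannot be told apart from expression in the tumour cells.

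Mmp11, or stromelysin-3, was the one Mmp gene detected in all 27 libraries at over 1 CPM, from 1.53 to 34.9 CPM without cytokine (median 15.9), from 1.85 to 39.7 with TGFβ (median 23.0) and from 4.43 to 33.2 with Wnt3a (median 8.17). With TGFβ it was higher in 6 lines and lower in 3, by 4.26-fold at most in ΔHD1/fl line 1, and the mean change was 0.42 ± 0.51 (SE) on the log2(CPM + 1) scale (limma adjusted p = 0.616). It was the leading Mmp gene per kb without cytokine and with Wnt3a in ΔHD1/fl line 1 and ΔHD2/- lines 2 and 3, the lines lowest in Mmp14, and with TGFβ in the last 2 of these. Mmp11 overlaps Chchd10 on the opposite strand, and whether counting used the strand was not stated.

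**Figure D2:**
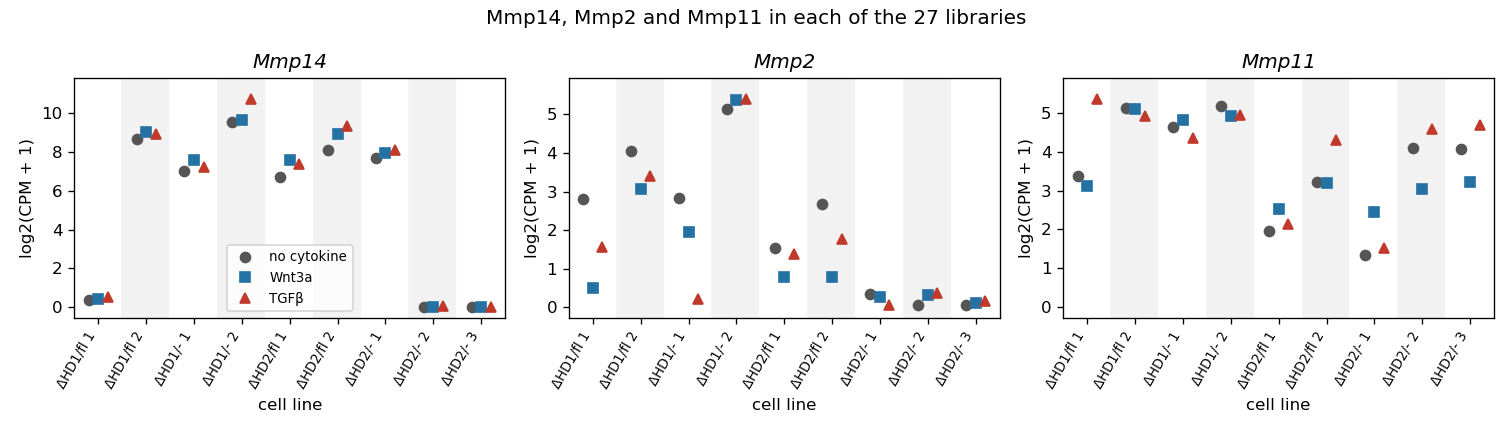
Levels of Mmp14, Mmp2 and Mmp11 in the 27 libraries, with the 9 cell lines on the x axis and log2(CPM + 1) on the y axis. Circles are libraries without cytokine, squares Wnt3a and triangles TGFβ. Mmp14 stands near 0 in ΔHD1/fl line 1 and ΔHD2/- lines 2 and 3 under each treatment, and its 3 symbols lie close together in the other 6 lines.

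The inhibitors were abundant, and with TGFβ most lines had less Timp3 and Timp2 and more Timp1, of which only Timp3 was called in the mean over genotypes, with the block. Timp3, which binds to the matrix and also inhibits Adam17, lies on chromosome 10 (86300412 to 86349505). Without cytokine it stood at 3617 and 772 CPM in ΔHD1/fl lines 1 and 2, at 1331 and 131 in ΔHD1/-, at 5612 and 6297 in ΔHD2/fl, and at 2078, 6607 and 6740 in ΔHD2/-. With TGFβ it stood at 1845 and 553, at 156 and 508, at 2398 and 1649, and at 261, 1193 and 1030 CPM. It was lower in 8 lines, by 1.40-fold to 8.53-fold, and 3.87-fold higher in ΔHD1/- line 2, the line where it had been lowest. The mean change was -1.40 ± 0.63 (SE) on the log2(CPM + 1) scale (limma adjusted p = 0.141), while the block gave an SE of 0.42 and a call for Timp3 (adjusted p = 0.0165). This call was lost without ΔHD1/fl line 1 or ΔHD2/fl line 2 (limma adjusted p = 0.0576 and 0.0708 with the block) and without ΔHD1/- line 1, where the change fell under the 2-fold limit. In the fit without a block Timp3 was called when ΔHD1/- line 2 was left out (limma, log2 change -2.03, adjusted p = 0.0340), and without ΔHD1/- line 1 its change was -0.77 (limma adjusted p = 0.416).

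Timp2, the inhibitor that also serves the activation of Mmp2, lies on chromosome 11 (118301061 to 118355411). It stood without cytokine at 1044 and 3730 CPM in ΔHD1/fl lines 1 and 2, at 2304 and 3551 in ΔHD1/-, at 1385 and 1261 in ΔHD2/fl, and at 835, 1908 and 1915 in ΔHD2/-. With TGFβ it stood at 1524 and 1621, at 727 and 1710, at 742 and 1633, and at 483, 558 and 522 CPM. It was lower in 7 lines, by up to 3.67-fold, and higher in ΔHD1/fl line 1 and ΔHD2/fl line 2. The mean change was -0.86 ± 0.30 (SE) on the log2(CPM + 1) scale (limma adjusted p = 0.0562, and 0.00352 with the block), under the 2-fold limit in both fits. Without ΔHD1/fl line 1 Timp2 was called in the fit without a block (limma, log2 change -1.08, adjusted p = 0.0249). Timp2 overlaps Cep295nl on the same strand, so reads of the shared part cannot be told apart.

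Timp1, on the X chromosome (20870166 to 20874737), encodes a secreted inhibitor of most Mmp proteins. Its level without cytokine was 260 and 240 CPM in ΔHD1/fl lines 1 and 2, 93.3 and 206 in ΔHD1/-, 161 and 39.2 in ΔHD2/fl, and 145, 48.0 and 51.9 in ΔHD2/-. With TGFβ it was 209 and 591, 360 and 481, 429 and 75.4, and 318, 69.9 and 80.1 CPM. Timp1 was higher in 8 lines, by 1.46-fold to 3.85-fold, and 1.25-fold lower in ΔHD1/fl line 1, with a mean change of 1.00 ± 0.48 (SE) on the log2(CPM + 1) scale (limma adjusted p = 0.164). With the block the SE was 0.17 and the adjusted p 0.000587, while the change itself, 0.9994, stayed just under the limit of 1. With a line left out the block called Timp1 in 5 of 9 fits. The Timp1 change was 1.17 with median-of-ratios scaling and 1.28 in edgeR, past the limit, but without a call (adjusted p = 0.122 and 0.0960). The genes that hold Timp1 and Timp3 in their introns on the opposite strand, Syn1 and Syn3, stood at 0.178 to 0.766 and 0.0837 to 2.11 CPM without cytokine, and at 0.208 to 8.96 and 0 to 0.491 CPM with TGFβ. Syn1 was higher with TGFβ in 6 lines, by up to 12.2-fold.

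**Figure D3:**
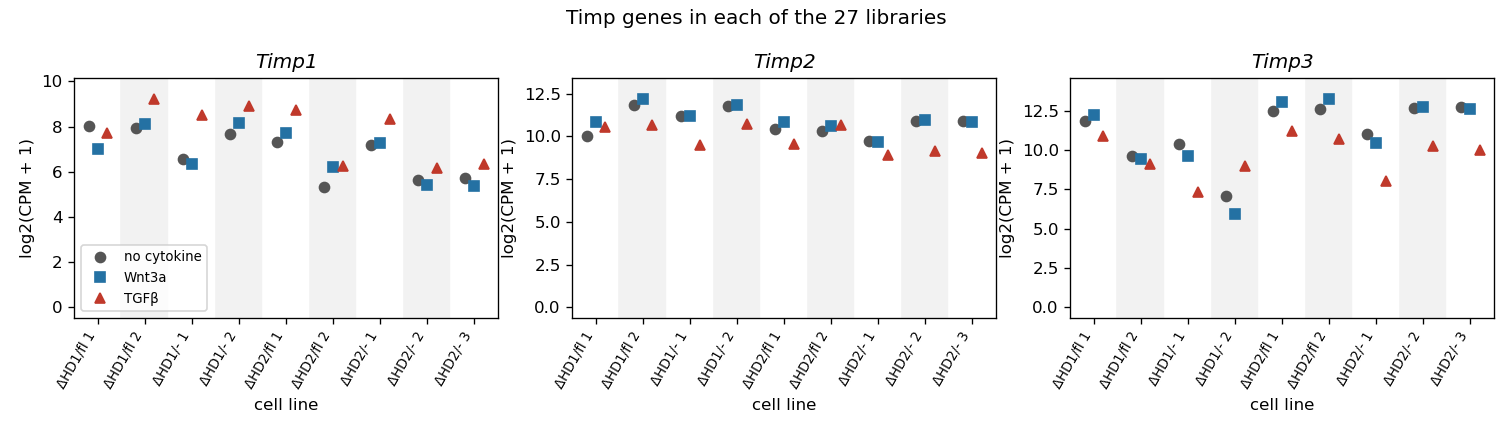
Levels of Timp1, Timp2 and Timp3 in the 27 libraries, with the 9 cell lines on the x axis and log2(CPM + 1) on the y axis. Circles are libraries without cytokine, squares Wnt3a and triangles TGFβ. The triangles lie above the circles for Timp1 in 8 lines and below them for Timp3 in 8 lines, with ΔHD1/- line 2 the exception for Timp3.

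The balance of both families was described by summing CPM per kb over the 7 Mmp genes and over the 3 Timp genes in each library. The ratio of the Timp sum to the Mmp sum was lower with TGFβ in 9 of 9 lines, with a median of 23.6 without cytokine (5.88 to 287) and 5.01 with TGFβ (0.457 to 44.7). Only in ΔHD2/- line 1 with TGFβ did the Mmp sum exceed the Timp sum, by 2.19-fold, and there Mmp9 made up 81.7% of the Mmp sum. With Wnt3a the ratio was lower in 6 lines and higher in 3, with a median of 20.4. Without cytokine the leading Mmp gene per kb was Mmp14 in 6 lines and Mmp11 in 3, and with TGFβ it was Mmp14 in 4 lines, Mmp9 in 3 and Mmp11 in 2. These are levels of RNA, and the activity of the proteins was not measured.

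Within single genotypes the TGFβ comparison rested on 2 lines, or 3 in ΔHD2/-, and no member was called by limma without a block, against 0.211% of genes for ΔHD1/fl, 1.43% for ΔHD1/-, 0.286% for ΔHD2/fl and 0.806% for ΔHD2/-. At an unadjusted p under 0.05 there were 3, 3, 1 and 2 members in that order, against 9.5%, 13.4%, 8.71% and 10.8% of genes, and edgeR on recovered reads called 0 in each. The block gave 3 calls for ΔHD1/fl, 5 for ΔHD1/-, 1 for ΔHD2/fl and 2 for ΔHD2/-, against 5.42%, 9.33%, 5.24% and 6.03% of genes. In ΔHD1/fl these were Mmp9, Mmp10 and Mmp13, with log2 changes of 6.21, 5.61 and 4.06 and limma adjusted p of 0.0180, 0.00898 and 0.0139. The ΔHD1/- calls were Mmp9 (5.47), Mmp10 (4.04), Mmp13 (3.04), Timp1 (1.58) and Timp2 (-1.36), the ΔHD2/fl call was Mmp9 (5.46), and the ΔHD2/- calls were Timp2 (-1.48) and Timp3 (-2.72), each value being a change on the log2(CPM + 1) scale. With a line left out, these block calls held in 8 of 9 fits for each ΔHD1/fl gene, in 5 (Timp2) to 8 (Timp1) for ΔHD1/-, and in 6 for Mmp9 in ΔHD2/fl. In ΔHD2/- they held in 7 for Timp2 and 4 for Timp3, and there 2 of the 3 lines were the nearly alike lines 2 and 3. In ΔHD2/- the Mmp9 change of 3.39 had a limma adjusted p of 0.0664 with the block, and the line changes there were 7.30, 1.11 and 1.76.

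Whether loss of the floxed allele altered these genes was asked by setting ΔHD1/- against ΔHD1/fl and ΔHD2/- against ΔHD2/fl under each treatment. No member was called by limma in any of these 6 comparisons, and none by edgeR. For ΔHD1/- against ΔHD1/fl limma called 0.0678% of genes without cytokine, 0.0452% with Wnt3a and 0.0301% with TGFβ, and for ΔHD2/- against ΔHD2/fl 0.55%, 0.686% and 0.354%. The shares at an unadjusted p under 0.05 were 4.85%, 5.86% and 8.22% for ΔHD1 and 8.61%, 8.64% and 7.98% for ΔHD2, and they held 1 member, Timp3 in ΔHD1/- against ΔHD1/fl under Wnt3a, where it differed by -3.05 ± 1.32 (SE) on the log2(CPM + 1) scale (limma adjusted p = 0.803). In edgeR the members at an unadjusted p under 0.05 were Mmp2 in ΔHD2/- against ΔHD2/fl without cytokine and Mmp2 and Timp2 in the same pair with TGFβ, where they differed by -3.78 and -1.27 (adjusted p = 0.604 and 0.613). The edgeR shares of all genes were 5.01% without cytokine, 6.6% with Wnt3a and 7.42% with TGFβ for ΔHD1, and 8.43%, 8.55% and 7.42% for ΔHD2. Mmp14 had the widest difference of limma in ΔHD2/- against ΔHD2/fl, -4.83 ± 3.45 (SE) on the log2(CPM + 1) scale without cytokine and -5.64 ± 3.45 with TGFβ (limma adjusted p = 0.739 and 0.757). In edgeR these were -1.47 and -2.13, smaller than those of Mmp2. The low values were those of ΔHD2/- lines 2 and 3, while ΔHD2/- line 1 at 205 CPM without cytokine lay within the ΔHD2/fl range of 104 to 269. The difference in response between recombined and fl lines was not called for any member by limma with or without the block. For TGFβ 0.00754% of genes were called in ΔHD1 and 0.0301% in ΔHD2 (0.98% and 1.35% at an unadjusted p under 0.05, with no member), and for Wnt3a 0% and 0.0151% (0.113% and 0.558%, with no member). With the block the shares were 0.0226% and 0.098% for TGFβ and 0% and 0.121% for Wnt3a, again for ΔHD1 and ΔHD2. At an unadjusted p under 0.05 the block gave 8.22% and 8.79% of genes for TGFβ, with Mmp14 and Timp2 in ΔHD2, and 1.17% and 2.82% for Wnt3a, with Mmp14 in ΔHD2. These comparisons could not be blocked by line except for the responses, and the spread between lines was wide, so an uncalled difference does not show equal levels.

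Wnt3a called no member, in the mean over genotypes or in any genotype, by limma with or without the block or by edgeR. In the mean 0.0226% of genes were called without the block and 0.241% with it. By genotype, in the order ΔHD1/fl, ΔHD1/-, ΔHD2/fl and ΔHD2/-, the shares were 0.0151%, 0.00754%, 0.113% and 0.00754% without the block and 0.00754%, 0.00754%, 0.324% and 0.00754% with it. No member had an unadjusted p under 0.05 in any of these comparisons without the block, against 4.63% of genes in the mean and 1.6%, 0.203%, 1.31% and 0.934% by genotype. With the block 2 members had one in the mean, Mmp2 and Mmp14, against 17.3% of genes. By genotype the block gave Mmp2 in ΔHD1/fl, Mmp2 and Mmp14 in ΔHD2/fl and no member in ΔHD1/- and ΔHD2/-, against 8.91%, 6.32%, 1.67% and 5.49% of genes. By edgeR no member had one, against 3.76% of genes in the mean and 1.44%, 0.234%, 0.61% and 1.02% for ΔHD1/fl, ΔHD1/-, ΔHD2/fl and ΔHD2/-. Mmp2 was lower in 6 lines and higher in 3, by 14.4-fold at most in ΔHD1/fl line 1 (5.95 to 0.412 CPM), with a mean change of -0.80 ± 0.24 (SE, block) on the log2(CPM + 1) scale (limma adjusted p = 0.155). Mmp14 was higher in 7 lines and at 0 in both libraries of the other 2, by 1.10-fold to 1.83-fold, with a mean change of 0.38 ± 0.12 (SE, block; limma adjusted p = 0.171).

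Of the genes that rose with TGFβ, Mmp10 varied most under Wnt3a. It was higher in 5 lines, lower in 2 and at 0 in both libraries of 2, from 0.274 to 4.18 CPM in ΔHD1/fl line 1 and from 4.24 to 11.9 in ΔHD1/- line 2, with a mean change of 0.67 ± 0.93 (SE) on the log2(CPM + 1) scale (limma adjusted p = 0.9998). Mmp9 stood at 2.60 CPM in ΔHD1/fl line 1, at 3.01 in ΔHD2/fl line 2 and at 28.1 in ΔHD2/- line 1, and higher in 7 of 9 lines, with a mean change of 0.45 ± 1.24 (SE). Mmp13 stayed at or under 1.07 CPM, and Mmp3 was lower in 6 lines and higher in 1. The mean changes of the inhibitors were for Timp1 0.04 ± 0.48 (SE) with 5 lines higher and 4 lower, Timp2 0.25 ± 0.30 with 7 higher and 2 lower, and Timp3 -0.10 ± 0.63 with 4 higher and 5 lower. The Wnt3a and TGFβ comparisons share the 9 untreated libraries, so their changes are not independent of each other.

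**Figure D4:**
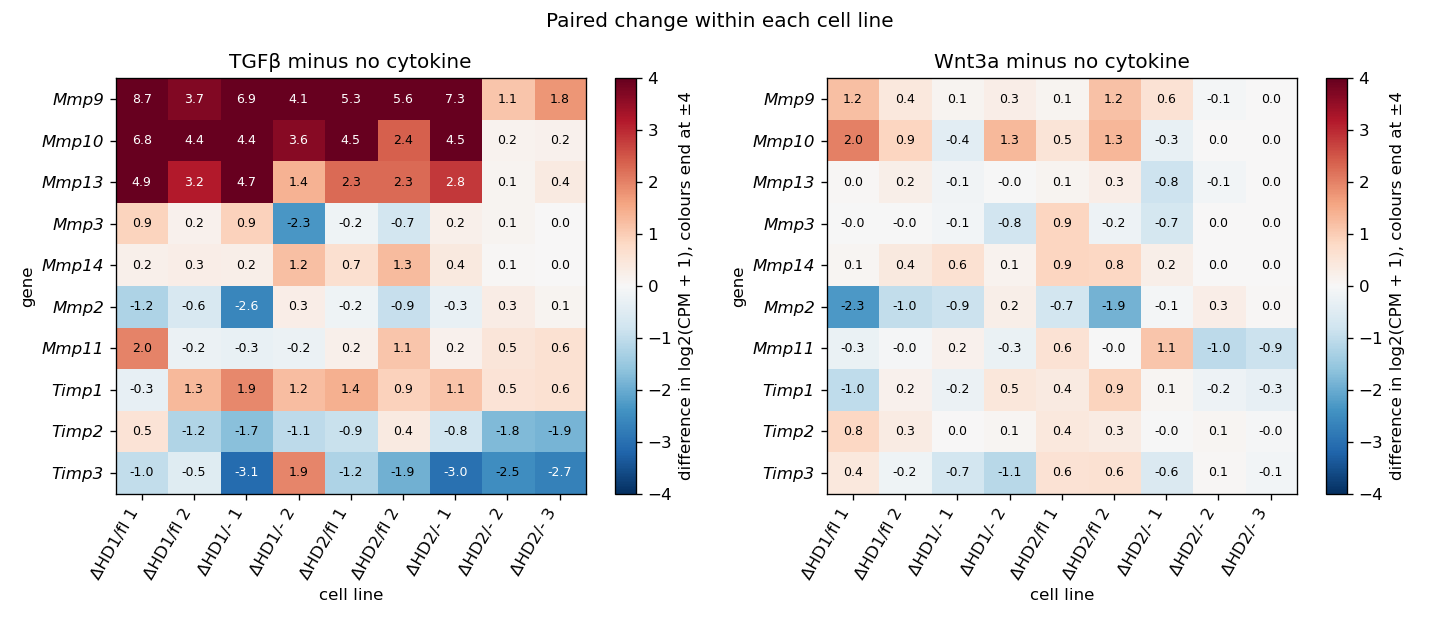
Change within each cell line, as the difference in log2(CPM + 1) from the library without cytokine, for the 10 genes (rows) in the 9 lines (columns). The left panel is TGFβ and the right panel Wnt3a, red is higher and blue lower with colours ending at a difference of 4, and the number in each cell is the change. Mmp9, Mmp10 and Mmp13 are above 0 in all 9 lines with TGFβ, from 0.12 to 8.71, as are 5.41% of tested genes. None of the 10 genes is so with Wnt3a. In ΔHD2/- lines 2 and 3 the TGFβ libraries held 7 reads or fewer of Mmp10 and of Mmp13.

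Other metalloproteinases and their regulators were read from 3 lists. Of 18 further Mmp, Timp and Reck genes, 8 passed the filter on low values and 10 did not, among them Mmp7, Mmp8 and Timp4. In the mean TGFβ comparison 1 of the 8 was called, against 5.42% of all genes, Mmp12, the macrophage elastase whose gene is in the same cluster. It stood at 0 to 2.07 CPM without cytokine (median 0.137) and at 0.148 to 177 with TGFβ (median 10.8), and the change was 3.31 ± 0.79 (SE) on the log2(CPM + 1) scale (limma adjusted p = 0.00861). Mmp12 is also on the published list of genes regulated by TGFβ and altered in the binding mutants. RefSeq gives it 2 starts, and TGANTCA began 44 bases before the second, while the window before the first held none. With Wnt3a 1 gene of this list was called, Mmp24, with the block only, against 0.241% of all genes. Mmp24 encodes a membrane-anchored enzyme and is on the matching published list for Wnt3a. Its log2 change was 2.05 ± 0.31 (SE, limma adjusted p = 0.0123, and 0.917 without the block). It was higher with Wnt3a in 9 of 9 lines, as were 1.73% of tested genes, from a median of 0.559 to one of 5.54 CPM and up to 130 CPM in ΔHD1/fl line 1. Reck, a membrane-anchored inhibitor, changed by -0.95 ± 0.23 (SE) with TGFβ (limma adjusted p = 0.00989), under the 2-fold limit. With Wnt3a Reck was lower in 9 of 9 lines, as were 3.22% of genes, with a change of -0.71 ± 0.23 (limma adjusted p = 0.776). The median change of the 8 genes was -0.12 against -0.16 over all tested genes, and that of the 10 members was 0.47.

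All 17 Adam and Adamts genes, the related disintegrin metalloproteinases, were tested, and 4 were called in the mean TGFβ comparison, against 5.42% of all genes. Adam12, a sheddase, rose by 3.65 ± 0.37 (SE) on the log2(CPM + 1) scale (limma adjusted p = 8.72e-06), the aggrecanase Adamts4 by 3.99 ± 0.84 (0.00403) and Adamts6 by 2.30 ± 0.58 (0.0125), while Adam8 fell by 1.69 ± 0.32 (0.0018). Adam12 was at 11.4 to 106 CPM without cytokine and at 355 to 810 with TGFβ, so its groups did not overlap, as was true of 1.06% of tested genes. With the block, where 8.92% of all genes were called, 3 more were, Adamts12 (1.70), Adamts9 (-1.53) and Adamts15 (-1.47). By genotype and without the block, Adam12 was called higher with TGFβ in ΔHD1/fl, ΔHD1/- and ΔHD2/-, where 0.211%, 1.43% and 0.806% of all genes were called. Adam12 was also the 1 gene of the 3 lists called between recombined and fl lines, lower by 3.14 ± 0.70 (SE) in ΔHD2/- than in ΔHD2/fl with Wnt3a (limma adjusted p = 0.0478, against 0.686% of genes). Adam12 stood there at 66.8, 8.76 and 11.9 CPM in ΔHD2/- lines 1 to 3 and at 190 and 169 in ΔHD2/fl. This call was lost in 10 of 15 alternatives, with edgeR (-2.63, adjusted p = 0.326) and with ΔHD2/- lines 2 and 3 averaged (limma adjusted p = 0.43) among them, and when any 1 line of ΔHD1/- or ΔHD2/fl or ΔHD2/- line 2 or 3 was left out (limma adjusted p of 0.0762 to 0.456). The median change of the list was 0.15.

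Among 12 genes that activate, dock or clear Mmp proteins, all tested, 3 were called in the mean TGFβ comparison, against 5.42% of all genes. Furin, the proprotein convertase that cuts the propeptides of Mmp14 and Mmp11, rose by 1.19 ± 0.16 (SE) on the log2(CPM + 1) scale (limma adjusted p = 0.000163), and Cd44, a surface receptor that can hold Mmp9, by 1.35 ± 0.38 (0.0211). Lcn2, which forms a complex with Mmp9, fell by 2.80 ± 0.69 (0.0109). With the block the convertase gene Pcsk6 (-2.02) and the plasminogen activator gene Plau (2.28) were also called, against 8.92% of all genes. The median change of this list was 0.44. In the mean Wnt3a comparison none of the 12 and none of the 17 genes was called by limma, and none had an unadjusted p under 0.05 without the block.

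**Figure D5:**
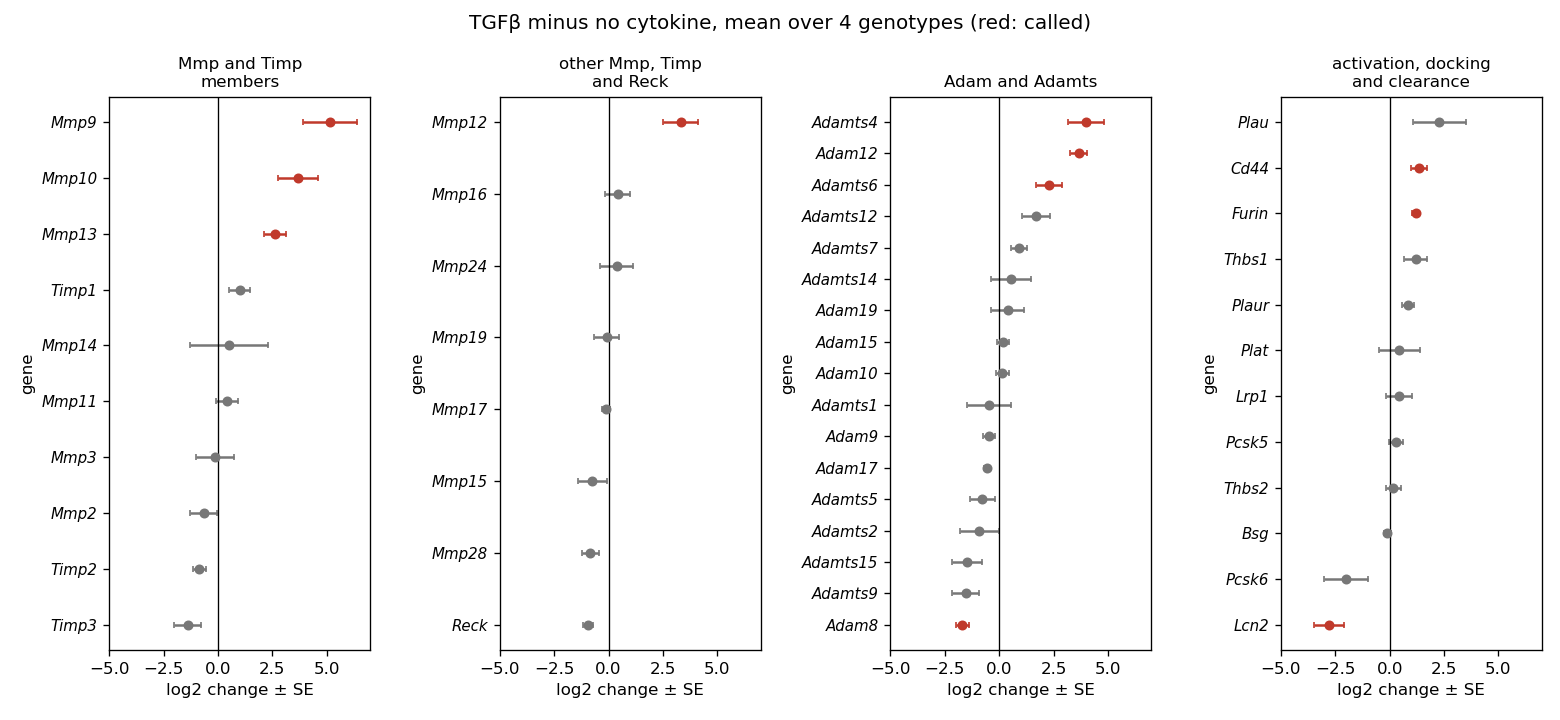
Mean TGFβ change over the 4 genotypes for each tested gene of the 4 groups. The x axis gives the log2 change of CPM + 1, bars are the SE of the limma fit without a block, and red marks called genes. Red points on the right are 3 of 10 members, Mmp12, 3 Adam and Adamts genes, and Cd44 and Furin.

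The genes whose levels followed a member most closely were found by Pearson correlation of log2(CPM + 1) over the 27 libraries, which share cell lines, so the values are a description. For Mmp9 these were Ctsl (0.895), which encodes cathepsin L, Mmp12 (0.877) and Cdh5 (0.874). For Mmp10 they were Wnt11 (0.876), Brsk1 (0.872) and Sla (0.850), and for Mmp13 Hsd11b2 (0.901), Tbx10 (0.860) and Myrip (0.857). Mmp14 followed Dock11 (0.955), Epb41l3 (0.945) and Ada (0.921), and Timp3 followed Smpdl3b (0.923), Mtus1 (0.914) and Susd6 (0.906). The third gene for Timp2 was the overlapping Cep295nl (0.867), after Slc48a1 (0.871) and Gas7 (0.868). Timp1 followed Tubb6 (0.881), Bdnf (0.854) and Sema7a (0.848), Mmp2 followed Dusp23 (0.900), Ogn (0.899) and Foxred2 (0.896), Mmp3 followed Podxl (0.885), Septin9 (0.834) and Galk1 (0.813), and Mmp11 followed Pkd1 (0.905), Ppic (0.880) and Rbfox2 (0.858).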

How the data were processed

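RNA was measured in 27 libraries of 9 cell lines. The authors prepared libraries of mRNA with a stranded kit, took uniquely mapping reads from STAR on mm10, and counted reads starting in RefSeq exons with QuasR. Use of the strand is not stated. The deposited CPM values are counts per 1000000 reads assigned to genes, and each library summed to 1000000. All values (100%) were whole reads within 0.02, so counts were recovered. The floors cover counting error only, while each SE comes from the spread between libraries left by the fit. Of 24454 identifiers 24374 matched a symbol and 80 did not.

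Tests ran on log2(CPM + 1) of genes reaching 1 CPM in 2 or more libraries, a scale that understates changes of low genes, with limma 3.58.1 in R 4.3.3 (trend, robust) over 12 group means and 20 comparisons. Calls needed a p of 0.05 or less after Benjamini-Hochberg adjustment over all 13270 genes and a log2 change of 1 or more in size. The study's methods give edgeR on counts with these thresholds, while a legend gives a p of 0.05 and 1.5-fold, so edgeR 4.0.16 on recovered reads was an alternative, as were scaling by median of ratios, dropping the filter, a smaller pseudocount (0.1), fitting only the compared groups, other thresholds, cell line as a block and leaving out each line. Leaving out a line together with the block was added after seeing the data. Replicate numbers stand for cell lines, which pairs the treatments: libraries of 1 line deviated together from their group means (r 0.509 to 0.940 over 27 pairs, 18 of them distinct, since the lines of a 2-line genotype mirror each other). Recombined lines were made from cells with a floxed allele, so fl and recombined lines may share parents, while the fits treated all lines as separate. Whether a recombined line came from the fl line of its number is not given. The fit was also run on simulated data, where lines differed less than these lines do for several members and only genes above a set mean level changed. That run does not check calls of genes near the floor. Replicates were lines from different mice per the labels.

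All 10 members are named, list genes where called in a mean comparison, and 3 most similar genes each. Members and lists were chosen with earlier results of these data known. Exon lengths are from GENCODE vM21 on GRCm38, the assembly called mm10. A gene of the activation list is not reported here.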

Additional observations from a re-analysis of the deposited data

Results flagged for a closer look

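The Wnt3a change of Mmp13 was upward in both ΔHD1/fl lines (0.05 and 0.22 on the log2(CPM + 1) scale) and downward in both ΔHD1/- lines (-0.14 and -0.01), which singled out the difference between these genotypes. The difference was -0.21 (limma adjusted p = 1), at levels that did not exceed 1.07 CPM in any Wnt3a library.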

How the results depend on the processing

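Of 4364 alternative values for the changes of single members, 4231 kept their call or lack of one, 125 gained a call, 6 lost it and 2 gained one in the opposite direction. Among the 4231, 193 had the opposite sign with neither value called, and 79 of the 200 changes took the other sign at least once. Mmp3 did so in the mean TGFβ comparison without ΔHD1/- line 2, Mmp11 in the mean Wnt3a comparison in 10 of 24 alternatives, and Mmp9 in ΔHD2/- against ΔHD2/fl with TGFβ, at -1.03 in limma and 4.08 in edgeR. Of the counts of called members 426 stayed within 1.5 times and 52 did not. These 2 reversals were of Timp3 in fits with the replicate block and a line left out. Without ΔHD1/- line 1 its TGFβ change in ΔHD1/- was 1.94 (limma adjusted p = 0.00848), and without ΔHD1/- line 2 its TGFβ response in ΔHD1/- minus ΔHD1/fl was -2.36 (limma adjusted p = 0.0491), in each case from 1 remaining ΔHD1/- line, assumed to vary like the other lines.

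The replicate block, which pairs treatments within a cell line, raised the members called with TGFβ from 3 to 4 in the mean, and from 0 to 3 for ΔHD1/fl, 5 for ΔHD1/-, 1 for ΔHD2/fl and 2 for ΔHD2/-. It changed no other count. It could not be used between recombined and fl lines. At an unadjusted p of 0.05 and 1.5-fold the counts were 5 in the mean, 3, 3, 1 and 2 for these genotypes and 1 for ΔHD1/- against ΔHD1/fl under Wnt3a, against 16.3% of all genes in the mean, 8.35%, 12.1%, 7.75% and 8.85% by genotype and 4.75% in that last comparison. Leaving out 1 line at a time, with or without the block, gave 1 to 6 members in the mean (1, Mmp13, without ΔHD2/fl line 1 and no block, and 6 without ΔHD1/- line 2 and with it; 5 in 4 other block fits), while 3.46% to 7.09% of all genes were called without the block and 8.19% to 10.6% with it. By genotype it gave 0 to 3 for ΔHD1/fl, 0 to 5 for ΔHD1/- (3 to 5 with the block), and 0 to 3 for each ΔHD2 genotype, with block shares of all genes of 2.47% to 11.3%, 6.9% to 10.1%, 0.425% to 6.83% (ΔHD2/fl) and 2.66% to 6.68% (ΔHD2/-). Without ΔHD2/- line 1 and no block the counts were 3, 3 and 1 for ΔHD1/fl, ΔHD1/- and ΔHD2/fl, and 1 in ΔHD2/- against ΔHD2/fl with TGFβ (Mmp10, -4.43), against 0.674%, 2.89%, 0.992% and 3.37% of genes. The TGFβ response difference in ΔHD1 had 2 called members, Mmp3 and Timp3, without ΔHD1/- line 1, and 1, Timp3, without line 2, both with the block, against 0.409% and 0.57% of genes. The cause of these shifts was not tested. Median-of-ratios scaling moved the median TGFβ change of all genes from -0.16 to -0.02 and called the same number of members. Low reads limit Mmp9, Mmp10, Mmp13, Mmp3, Mmp2 and Mmp14, where 2 to 4 untreated lines had 3 reads or fewer.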
